A study of Mus musculus with 9 samples.

Results

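The EGR, NAB and NR4A genes form a small set of early response regulators, and 8 of them were followed by symbol through the 48709 rows of a mouse expression table: Egr1, Egr2, Egr3, Nab1, Nab2, Nr4a1, Nr4a2 and Nr4a3. RNA was sequenced in 9 libraries of CD8+ T cells, the cytotoxic arm of the T cell response. The OVA/Citra group (n = 3) received OVA peptide, a piece of chicken ovalbumin used as a model antigen, together with citraconate, a small unsaturated dicarboxylic acid and an isomer of itaconate. The OVA group (n = 3) received the peptide alone, and the CTRL group (n = 3) had no peptide. The study's title and design text ask what citraconate does to transcription in these cells and whether it keeps them stem-like. No strain, genotype, animal age, dose or time is given in the labels, and no group had citraconate without peptide. The term PAS-T cells, which the labels leave undefined, stands for the cells of 8 libraries, and OVA/Citra replicate 1 is described as OVA-stimulated T cells. Whether replicates are separate cultures or animals is not stated, so the p-values measure the spread between these libraries, which may be technical.

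EGR proteins are zinc finger transcription factors that antigen receptor signalling switches on quickly, largely through the ERK pathway and the serum response factor SRF. In T cells EGR2 and EGR3 are known for raising genes that restrain activation, such as the ubiquitin ligase gene Cblb. NAB1 and NAB2 are corepressors that bind EGR1, EGR2 and EGR3 and lower their activity, and Nab2 is itself a known EGR target. The NR4A genes encode orphan nuclear receptors that are induced by calcium, cAMP and antigen receptor signals. Nr4a1 (Nur77) is widely used as a reporter of receptor signalling in T cells, and all the NR4A genes are known from chronically stimulated, exhausted T cells.

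Promoter sequence is shown for the NR4A genes, since they went different ways in these libraries, and for Egr2, the member with the largest rise with citraconate. Each run is the 250 bases before a RefSeq transcript start in build GRCm38.p6, an older build than the GRCm39 named in the submitters' processing notes. The Egr2 window is chr10:67537619-67537868 on the plus strand, one of 5 annotated windows of this gene and the first of 3 largely overlapping ones that held the most motif matches. Nr4a1 is at chr15:101266596-101266845 on the plus strand, Nr4a2 at chr2:57124004-57124253 on the minus strand and Nr4a3 at chr4:48045055-48045304 on the plus strand. Capitals mark every match to the motifs searched on both strands.
Egr2: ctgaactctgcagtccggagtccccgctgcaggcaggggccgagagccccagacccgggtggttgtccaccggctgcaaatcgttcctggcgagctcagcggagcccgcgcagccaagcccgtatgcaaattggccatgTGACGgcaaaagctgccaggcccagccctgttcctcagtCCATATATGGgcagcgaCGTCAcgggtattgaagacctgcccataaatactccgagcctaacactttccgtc
Nr4a1: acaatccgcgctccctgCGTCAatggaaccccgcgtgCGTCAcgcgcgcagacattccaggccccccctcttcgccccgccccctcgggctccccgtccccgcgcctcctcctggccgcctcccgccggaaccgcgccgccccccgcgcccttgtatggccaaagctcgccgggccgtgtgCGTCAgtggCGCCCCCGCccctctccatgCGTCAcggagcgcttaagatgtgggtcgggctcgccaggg
Nr4a2: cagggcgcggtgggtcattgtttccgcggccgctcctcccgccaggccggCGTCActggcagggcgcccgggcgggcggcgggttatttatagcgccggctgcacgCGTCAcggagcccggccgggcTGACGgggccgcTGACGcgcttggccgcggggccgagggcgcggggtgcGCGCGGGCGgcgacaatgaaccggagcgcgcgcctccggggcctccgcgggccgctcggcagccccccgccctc
Nr4a3: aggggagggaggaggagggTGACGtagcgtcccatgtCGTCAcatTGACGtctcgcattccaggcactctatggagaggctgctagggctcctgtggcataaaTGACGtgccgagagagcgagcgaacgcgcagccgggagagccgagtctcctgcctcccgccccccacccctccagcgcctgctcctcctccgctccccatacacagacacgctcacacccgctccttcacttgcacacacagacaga

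The motifs were the CRE (TGACGTCA, bound by CREB), its core TGACG (which the CRE contains on both strands), the EGR site (GCGNGGGCG), the NBRE bound by NR4A monomers (AAAGGTCA), the AP-1 site (TGANTCA) and the CArG box of SRF, given by name. No match of one motif overlapped that of another in the windows shown. Each of the 3 NR4A windows held 4 CRE cores. At least 1 core was present in 17.8% of the 32851 promoter windows of the same length, and at least 4 in 0.137%. The EGR site was present in the Nr4a1 and Nr4a2 windows and in 4.7% of all windows. The Egr2 window held a CArG box at bases -72 to -63 before the start, a motif present in 1.47% of all windows, beside 2 CRE cores. The Egr2 window was chosen from several for its matches, so these shares do not measure how rare its matches are. The full CRE (1.55% of all windows), the NBRE (1.34%) and the AP-1 site (6.75%) had no match in the 4 windows shown. Matches are letters in a sequence and not measured binding. For the other members, the Nab1 window held 3 EGR sites, a count reached in 0.14% of all windows, and the Nab2 window had no match. Windows were found for 6 of the 8 members.

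Values are the authors' TPM, a share of all transcripts in the library that sums to 1000000 and is corrected for gene length. Reads per gene could be worked back from the table and came to 14754470 to 17384330 per library. The members ranged from 40 reads (Egr3 in CTRL replicate 2, 4.61 TPM, exact 95% Poisson interval 3.29 to 6.28 TPM, counting error only) to 8534 reads (Egr1 in CTRL replicate 3). Among the defining markers of CD8+ T cells were Cd3e (1281 ± 84.5 TPM in OVA/Citra, 513 ± 136 TPM in OVA and 1405 ± 23.0 TPM in CTRL; SD, n = 3 each) and Cd8a (325 ± 38.7, 142 ± 37.5 and 217 ± 6.15 TPM in the same groups), beside Cd4 at 0.836 to 3.11 TPM. Cd8b1, which like Cd8a encodes a CD8 chain, had 347 ± 31.4, 177 ± 47.8 and 601 ± 14.7 TPM in that order. Unlike Cd8a, it was lower in OVA/Citra than in CTRL. The summed level of 12 T cell markers was 7532 to 7905 TPM in OVA/Citra, 4280 to 5462 TPM in OVA and 8536 to 8980 TPM in CTRL. By the calling rule given below, 11 of the 12 were lower in OVA than in CTRL, beside 39.8% of all genes tested. In OVA/Citra against OVA, 11 of the 12 were called higher, beside 37.8% of all genes. Of 6 natural killer markers, all 6 were called higher in OVA than in CTRL, beside 32.1% of all genes. All 6 were called lower in OVA/Citra than in OVA, beside 21.2% of all genes. Their sum was 28.9 to 46.2 TPM in OVA/Citra, 122 to 194 TPM in OVA and 0.841 to 2.94 TPM in CTRL, where the defining marker Ncr1 was listed at 0 in all 3 libraries. The sum of 7 B cell markers was 0.772 to 1.02 TPM in OVA/Citra, 0.681 to 1.25 TPM in OVA and 15.8 to 17.5 TPM in CTRL. For 10 myeloid markers, of which Fcgr1, S100a8 and S100a9 were listed at 0 throughout, the sum was 9.12 to 11.5, 13.6 to 16.5 and 8.26 to 12.0 TPM in the same order of groups. The sum of 4 CD4 T cell markers was 18.3 to 19.9 TPM in OVA/Citra, 19.6 to 21.4 TPM in OVA and 53.9 to 60.8 TPM in CTRL. In that order, 5 erythroid markers (Hbb-bs at 0 throughout) summed to 10.6 to 12.7, 3.74 to 5.06 and 7.66 to 9.22 TPM, and 7 stromal and epithelial markers (Col3a1 and Krt8 at 0) to 14.7 to 18.2, 29.0 to 41.3 and 4.60 to 6.14 TPM. Mitochondrially encoded transcripts took 8.82 to 10.7% in OVA/Citra, 6.15 to 8.35% in OVA and 7.30 to 7.76% in CTRL. The part of these shifts in the results on the members was not tested. In bulk RNA, a change in cell types cannot be told apart from a change in expression per cell, also within the CD8+ T cells.

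Differences were tested with limma on log2(TPM + 1) over the 11971 genes whose group mean reached 1 TPM somewhere, all 8 members among them. A gene was called at a Benjamini-Hochberg adjusted p under 0.05. Log2 changes understate the change of genes with low values.

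**Figure D1:**
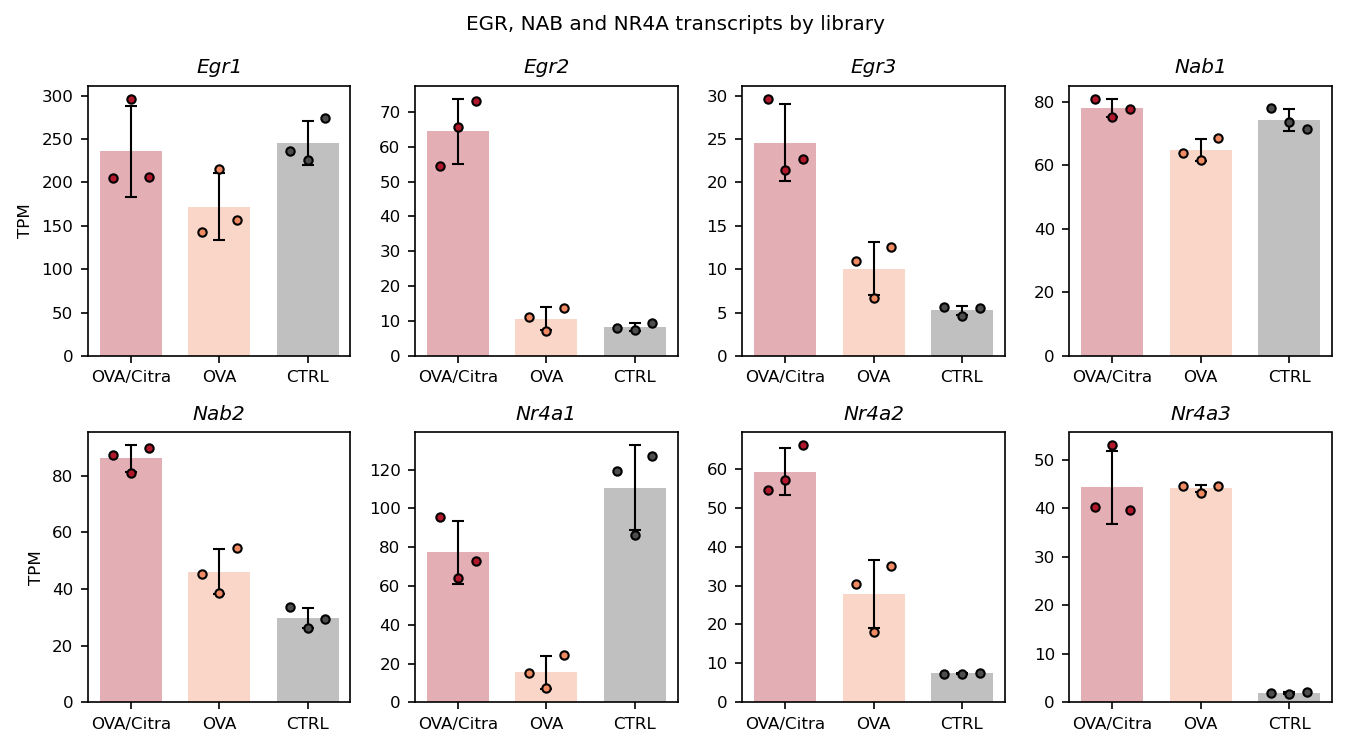
TPM of the 8 genes (vertical axes, each from 0) in OVA/Citra, OVA and CTRL libraries (left to right). Points are libraries in the order of replicates 1 to 3, bars are means and whiskers are SD (n = 3). Egr2, Egr3, Nab2 and Nr4a2 stood highest in OVA/Citra, Nr4a3 was high in both peptide groups, and Nr4a1 was lowest in OVA.

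With OVA peptide, against CTRL, 4 members were called higher (Egr3, Nab2, Nr4a2 and Nr4a3) and 3 lower (Egr1, Nab1 and Nr4a1), while Egr2 was not called. Among all genes tested, 32.1% were called higher and 39.8% lower in this comparison. The groups did not overlap for 7 of the 8 members, against 75% of all genes tested. When citraconate was added to the peptide, 7 of 8 members were called higher and 0 lower, against 37.8% of all genes called higher and 21.2% called lower. Nr4a3 was the member not called. The groups did not overlap for 6 members, against 66.1% of all genes. In OVA/Citra against CTRL, 5 members were called higher (Egr2, Egr3, Nab2, Nr4a2 and Nr4a3) and 0 lower, against 33.1% of all genes called higher and 26.3% called lower. The groups did not overlap for 5 members, against 67.4% of all genes. The 3 comparisons share libraries and are not independent.

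The median change of all genes tested was a log2 of 0.12 in OVA/Citra against OVA. Median of ratios scaling of the libraries took this shift away and changed the split of called genes to 3482 higher and 3589 lower, against 4522 higher and 2543 lower without it. Log2 changes of OVA/Citra against OVA are therefore given below after subtracting that median, while their SE and adjusted p belong to the change before subtraction. Folds are ratios of mean TPM without this subtraction, so they are not the same quantity as the relative log2 changes beside them.

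Egr2, the zinc finger factor tied to restraint of T cell activation, stood at 54.6, 65.7 and 73.0 TPM in OVA/Citra libraries, against 11.3, 7.12 and 13.7 TPM in OVA libraries and 8.03, 7.35 and 9.43 TPM in CTRL libraries. The OVA/Citra values lay far above both other groups, and the OVA and CTRL values overlapped. Egr2 averaged 64.4 ± 9.28 TPM in OVA/Citra and 10.7 ± 3.33 TPM in OVA (SD, n = 3 each), a 6.02-fold rise (relative log2 change 2.39 ± 0.20 SE, adjusted p = 9.77e-06) and the 36th largest increase of all genes tested. Against CTRL, at 8.27 ± 1.06 TPM, the OVA/Citra level was 7.79-fold higher (log2 2.82 ± 0.20, adjusted p = 1.53e-06). OVA alone was not called against CTRL (log2 0.30, 95% interval -0.14 to 0.74, adjusted p = 0.193). Without OVA replicate 2, the lowest OVA library, this change was called (log2 0.54, adjusted p = 0.00557).

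Egr3, a close relative of Egr2 with overlapping roles in T cells, had 29.6, 21.4 and 22.7 TPM in OVA/Citra, against 10.9, 6.72 and 12.6 TPM in OVA and 5.61, 4.61 and 5.50 TPM in CTRL. The groups formed 3 steps without overlap. The OVA/Citra mean of 24.6 ± 4.41 TPM was 2.44-fold the OVA mean of 10.1 ± 3.01 TPM (relative log2 1.11 ± 0.20, adjusted p = 4.32e-04). OVA was 1.92-fold above CTRL at 5.24 ± 0.550 TPM (log2 0.79 ± 0.20, adjusted p = 0.00436), and OVA/Citra 4.69-fold above CTRL (log2 2.03 ± 0.20, adjusted p = 1.40e-05).

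Egr1, the most general growth and stress response member, was the most abundant of the 8 in every group. It stood at 205, 296 and 207 TPM in OVA/Citra, against 143, 216 and 157 TPM in OVA and 236, 226 and 275 TPM in CTRL. The OVA/Citra and OVA values overlapped, as did OVA/Citra and CTRL, while every OVA library lay below every CTRL library. Egr1 averaged 236 ± 52.3 TPM in OVA/Citra and 172 ± 38.5 TPM in OVA, a difference that passed narrowly (relative log2 0.33 ± 0.17, adjusted p = 0.0421). That call was lost with median of ratios scaling (adjusted p = 0.163) and in 11 other settings, among them leaving out OVA replicate 1 (0.150), OVA replicate 3 (0.104), OVA/Citra replicate 2 (0.146) or any CTRL library (0.0521 to 0.0580). Egr1 fell in OVA against CTRL, at 246 ± 25.7 TPM (log2 -0.53 ± 0.17, adjusted p = 0.0176), and this call was lost without CTRL replicate 3 (0.0710), OVA replicate 1 (0.0728) or OVA replicate 3 (0.0511) and with median of ratios scaling (0.0545) or granzyme genes left out (0.0565). OVA/Citra and CTRL were not called different (log2 -0.07, 95% interval -0.46 to 0.31, adjusted p = 0.726).

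The corepressor gene Nab2 had 87.3, 80.9 and 89.9 TPM in OVA/Citra, against 45.3, 38.7 and 54.4 TPM in OVA and 33.5, 26.4 and 29.4 TPM in CTRL. As with Egr3, the groups formed 3 steps without overlap. The mean was 86.0 ± 4.63 TPM in OVA/Citra and 46.1 ± 7.89 TPM in OVA, 1.86-fold higher (relative log2 0.77 ± 0.12, adjusted p = 1.53e-04). OVA was 1.55-fold above CTRL at 29.8 ± 3.61 TPM (log2 0.61 ± 0.12, adjusted p = 0.00102), and OVA/Citra 2.89-fold above CTRL (log2 1.5 ± 0.12, adjusted p = 3.57e-06).

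Its paralog Nab1 moved little. It had 80.8, 75.3 and 77.6 TPM in OVA/Citra, against 63.9, 61.6 and 68.7 TPM in OVA and 78.1, 73.6 and 71.3 TPM in CTRL, so that OVA lay below both other groups. It averaged 77.9 ± 2.79 TPM in OVA/Citra and 64.7 ± 3.59 TPM in OVA, 1.20-fold higher (relative log2 0.14 ± 0.06, adjusted p = 0.00321). With median of ratios scaling this rise was a log2 of 0.13 (adjusted p = 0.0328), and on recovered reads 0.14 (0.0355). The fall of Nab1 in OVA against CTRL, at 74.3 ± 3.43 TPM (log2 -0.20 ± 0.06, adjusted p = 0.0119), was lost with median of ratios scaling (0.0589), with granzyme genes left out (0.188) and on recovered reads (0.0558). OVA/Citra and CTRL were not called different (log2 0.07, 95% interval -0.06 to 0.20). The ratio of Nab2 to Nab1 was 1.10 ± 0.0467 in OVA/Citra, 0.710 ± 0.0823 in OVA and 0.400 ± 0.0373 in CTRL, without overlap between groups.

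Nr4a1 was the member with the deepest fall in OVA and a large rise with citraconate. It had 95.3, 64.0 and 72.9 TPM in OVA/Citra, against 14.9, 7.44 and 24.5 TPM in OVA and 119, 86.0 and 127 TPM in CTRL. All OVA libraries lay below all others, and OVA/Citra overlapped with CTRL. Nr4a1 averaged 77.4 ± 16.1 TPM in OVA/Citra and 15.6 ± 8.54 TPM in OVA, 4.96-fold higher (relative log2 2.24 ± 0.33, adjusted p = 2.09e-04) and the 49th largest increase of all genes tested. OVA was 7.09-fold below CTRL at 111 ± 21.7 TPM (log2 -2.87 ± 0.33, adjusted p = 2.56e-05), the 113th largest decrease. In OVA/Citra against CTRL it was not called (log2 -0.51, 95% interval -1.25 to 0.23, adjusted p = 0.210). It was called lower there without OVA replicate 2 (adjusted p = 0.0494), in a fit of only the 2 groups compared (0.0240) and on recovered reads (0.0437).

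Nr4a2 (Nurr1), best known from dopamine neurons and also induced in activated T cells, had 54.6, 57.2 and 66.0 TPM in OVA/Citra, against 30.4, 18 and 35.1 TPM in OVA and 7.41, 7.40 and 7.68 TPM in CTRL. The groups formed 3 steps without overlap, and the CTRL libraries lay very close together. The mean was 59.3 ± 5.97 TPM in OVA/Citra and 27.8 ± 8.84 TPM in OVA, 2.13-fold higher (relative log2 0.99 ± 0.19, adjusted p = 7.45e-04). OVA was 3.71-fold above CTRL at 7.49 ± 0.159 TPM (log2 1.71 ± 0.19, adjusted p = 2.10e-05), and OVA/Citra 7.91-fold above CTRL (log2 2.82 ± 0.19, adjusted p = 1.38e-06).

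Nr4a3 (Nor1) had 40.4, 53.0 and 39.7 TPM in OVA/Citra, against 44.6, 43.3 and 44.5 TPM in OVA and 2.02, 1.77 and 2.05 TPM in CTRL. The peptide groups overlapped with each other and lay far above CTRL. OVA, at 44.1 ± 0.775 TPM, was 22.7-fold above CTRL at 1.95 ± 0.152 TPM (log2 3.94 ± 0.11, adjusted p = 2.17e-09), the 72nd largest increase of all genes tested. OVA/Citra averaged 44.4 ± 7.49 TPM and was not called against OVA (log2 -0.00 before and -0.13 after subtracting the median, 95% interval before subtraction -0.24 to 0.23, adjusted p = 0.974). Against CTRL it was 22.8-fold higher (log2 3.93 ± 0.11, adjusted p = 4.35e-09).

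**Figure D2:**
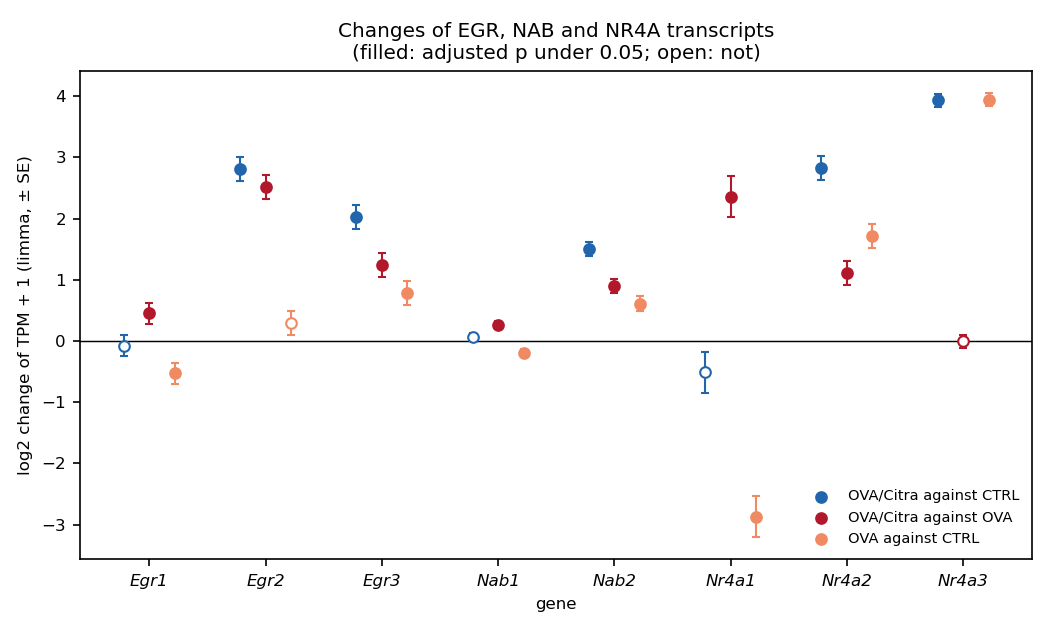
Log2 changes of TPM + 1 from limma (vertical axis, ± SE, no median subtracted) for each gene in OVA/Citra against CTRL, OVA/Citra against OVA and OVA against CTRL. Filled points passed an adjusted p of 0.05. Nr4a1 fell by 2.87 with OVA where Nr4a3 rose by 3.94, and Egr2 rose by 2.52 with citraconate.

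Since TPM is corrected for length, members of a family can be added up within a library, though the lengths behind the values of Egr3 and Nr4a1 were shorter than their merged exons in GENCODE M21 (1409 against 4406 bases for Egr3, 2458 against 3509 bases for Nr4a1). In CTRL, Nr4a1 made up 92.0 ± 1.40% of the summed NR4A TPM (SD, n = 3). Its share was 17.0 ± 6.34% in OVA, where Nr4a3 held 51.8 ± 10.3% and Nr4a2 31.2 ± 4.36%. In OVA/Citra the 3 genes held shares of 42.5 ± 6.84% (Nr4a1), 32.8 ± 4.13% (Nr4a2) and 24.6 ± 5.05% (Nr4a3). The NR4A sum was 174 to 190 TPM in OVA/Citra, 68.7 to 104 TPM in OVA and 95.2 to 137 TPM in CTRL, so the OVA/Citra libraries lay above all others while OVA and CTRL overlapped. In the EGR family Egr1 held 72.2 ± 4.60% in OVA/Citra, 88.7 ± 4.55% in OVA and 94.8 ± 0.232% in CTRL, and Egr2 held 20.1 ± 3.64%, 5.80 ± 2.36% and 3.19 ± 0.0903% in the same order. The EGR sum was 289 to 383 TPM in OVA/Citra, 165 to 230 TPM in OVA and 238 to 290 TPM in CTRL.

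**Figure D3:**
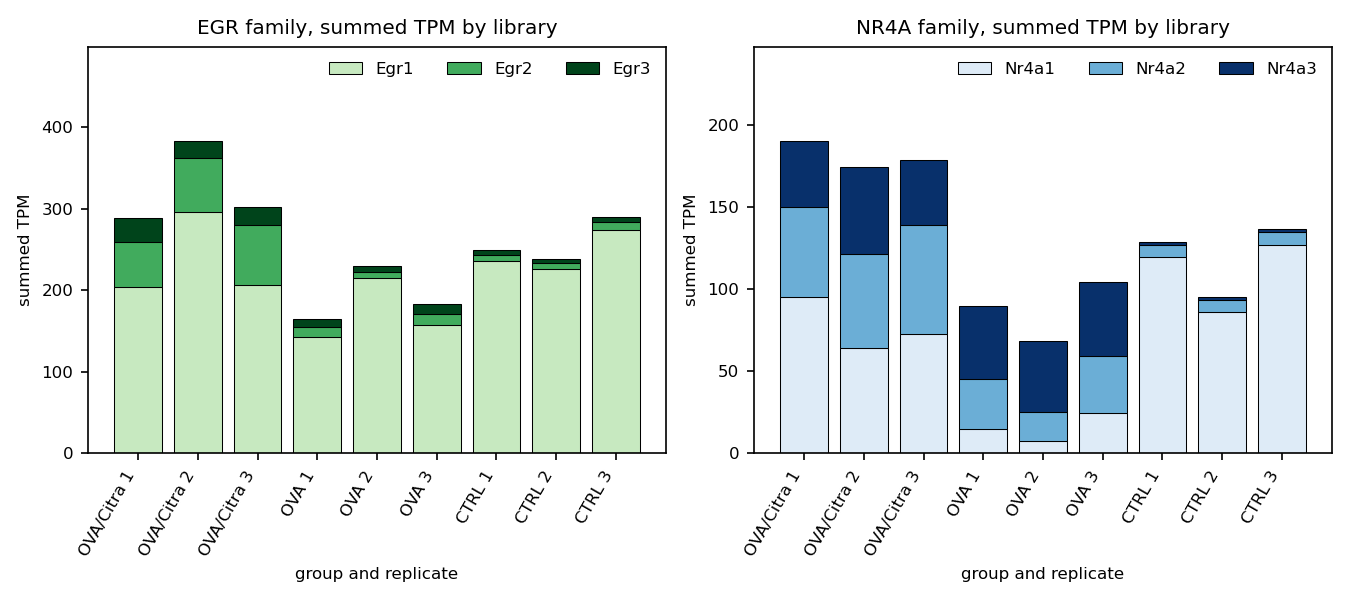
Summed TPM of Egr1, Egr2 and Egr3 (left) and of Nr4a1, Nr4a2 and Nr4a3 (right) in each library, by group and replicate. The NR4A sum is 174 to 190 TPM in OVA/Citra, against 68.7 to 104 TPM in OVA, and its main part is Nr4a1 in CTRL but Nr4a3 in OVA.

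Within groups the members did not vary alike. OVA replicate 2 was the lowest OVA library for 7 of the 8 members and the highest for Egr1. OVA replicate 3 was the highest for 6. In CTRL, replicate 2 was the lowest library for 7 members. The coefficient of variation in OVA reached 54.7% for Nr4a1 and was 1.76% for Nr4a3. Leaving out OVA replicate 2 gave 8 members called in OVA against CTRL (5 higher, 3 lower), 7 called in OVA/Citra against OVA and 6 in OVA/Citra against CTRL. Over all genes the same fits called 8230, 6211 and 7345 genes in these comparisons, with the filter on low values applied again to the libraries kept.

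Across the 9 libraries, Pearson correlations of log2(TPM + 1) between members ran from -0.60 (Nr4a1 with Nr4a3) to 0.99 (Egr3 with Nab2). Egr2, Egr3, Nab2 and Nr4a2 correlated with each other at 0.86 to 0.99, and Nab1 correlated most with Nr4a1 (0.88). All points share the same 3 groups, so these values mostly describe the order of the group means. The 3 genes most like each member were sought among 9129 other genes whose highest group mean reached 5 TPM. Egr2 was most like Rasgef1a (r = 0.992), B4galnt1 (0.992) and Plxdc2 (0.991), and Egr3 was most like Ech1 (0.993), Igfbp2 (0.992) and Gucy1a3 (0.991). Nab2 was most like Twsg1 (0.995), Ppfibp1 (0.991) and Synpo (0.991), and Nab1 most like Pum2 (0.989), Cenpq (0.985) and Arhgef3 (0.985). For Nr4a1 these genes were Ppil2 (0.994), Stat5b (0.994), a transcription factor of cytokine signalling, and Cenpw (0.993). For Nr4a2 they were Tnfsf4 (0.998), which encodes OX40 ligand, Bcl2a1b (0.998), of the anti-apoptotic A1 genes, and Plscr1 (0.998). For Nr4a3 they were Serpinb9 (0.999), the granzyme B inhibitor, Cers6 (0.998) and Serpinb9b (0.998). Bcl2a1 genes have near-identical copies, so the division of their reads is uncertain. Serpinb9 and Serpinb9b are related genes, at 12.2 and 0.065 TPM in CTRL, and the division of their reads was not tested. Egr1 had the loosest matches, Ap5b1 (0.958), Zfp865 (0.932) and Ndufb9 (0.925), with 1 gene over 0.95, while Nr4a1 had 625 such genes.

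The genes around the members were read from 5 lists written from general knowledge, with earlier results of these data already known. Of 46 other immediate early genes tested, 37 were higher and 3 lower in OVA/Citra than in OVA, beside 37.8% and 21.2% of all genes. The median relative log2 change of the list was 0.79, against 0 for all genes by construction. In OVA against CTRL, 6 of the 46 were higher and 26 lower, beside 32.1% and 39.8% of all genes, with a median log2 change of -0.39 against -0.08 for all genes. Fos, a subunit of the AP-1 factor, had 42.8 ± 7.70 TPM in OVA/Citra, 8.86 ± 1.11 TPM in OVA and 79.2 ± 7.76 TPM in CTRL. Dusp1, a phosphatase that switches off MAP kinases, had 73.7 ± 5.97, 11.1 ± 1.74 and 58.0 ± 1.78 TPM, and Btg2, an antiproliferative gene, 68.6 ± 10.1, 16.5 ± 1.94 and 37.3 ± 3.04 TPM in the same order. These 3 genes, like Nr4a1, fell in OVA against CTRL and rose in OVA/Citra against OVA. So did Fosb (relative log2 1.57 with citraconate) and Klf2 (1.68). Egr4, the EGR gene that is no member here, was scarce, at 12 to 23 reads per library in OVA/Citra, 0 to 6 in OVA and 4 to 9 in CTRL.

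Of 24 tested genes upstream of EGR and NR4A transcription, activators and repressors together, 14 were higher and 2 lower in OVA/Citra than in OVA. The shares of all genes were 37.8% and 21.2%, and the median relative log2 change of the list was 0.15. In OVA against CTRL 4 were higher and 17 lower, beside 32.1% and 39.8% of all genes, with a median of -0.40 against -0.08 for all genes. Rasgrp1, an activator of RAS below the T cell receptor, had 47.2 ± 2.0 TPM in OVA/Citra, 29.6 ± 2.24 TPM in OVA and 102 ± 5.03 TPM in CTRL. Mapk3, which encodes the kinase ERK1, had 98.8 ± 7.89, 55.8 ± 6.36 and 129 ± 2.60 TPM, and Hdac7, a deacetylase that represses Nr4a1 in thymocytes, 246 ± 19.8, 97.6 ± 25.5 and 323 ± 18.8 TPM in the same order. Elk3 (relative log2 0.54) also rose with citraconate, and Nfatc3 fell with OVA (log2 -0.62).

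Of 24 tested genes linked to EGR2 and EGR3 or to tolerance, 18 were higher and 4 lower in OVA/Citra than in OVA, beside 37.8% and 21.2% of all genes, with a median relative log2 change of 0.80. In OVA against CTRL 12 were higher and 8 lower, beside 32.1% and 39.8% of all genes, with a median of 0.44 against -0.08 for all genes. Bcl2l11, which encodes the death factor BIM, had 41.9 ± 4.47 TPM in OVA/Citra, 6.54 ± 1.23 TPM in OVA and 6.73 ± 0.603 TPM in CTRL and was called in OVA/Citra against OVA but not in OVA against CTRL. Socs1, a brake on cytokine signalling, had 68.3 ± 6.54, 18.8 ± 3.60 and 83.3 ± 4.04 TPM in the same order, and Dgkz, which removes diacylglycerol, 195 ± 20.5, 107 ± 7.40 and 144 ± 2.16 TPM. Other genes went the opposite way with citraconate. Cblb had 120 ± 9.21 TPM in OVA/Citra, 165 ± 5.17 TPM in OVA and 47.6 ± 4.14 TPM in CTRL, and Rnf128, the anergy-linked ubiquitin ligase GRAIL, 3.98 ± 0.161, 14.1 ± 2.23 and 3.27 ± 0.273 TPM. Tnfrsf9 (4-1BB) was not called between OVA/Citra and OVA (relative log2 -0.16, adjusted p = 0.744) and rose in OVA against CTRL (log2 2.22), and Tob1 fell there (-1.59).

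Of 25 tested genes linked to NR4A factors in T cells, 17 were higher and 4 lower in OVA/Citra than in OVA, beside 37.8% and 21.2% of all genes, with a median relative log2 change of 1.25. In OVA against CTRL 6 were higher and 12 lower, beside 32.1% and 39.8% of all genes, with a median of -0.25 against -0.08 for all genes. Ikzf2, which encodes Helios, had 8.42 ± 1.28 TPM in OVA/Citra, 1.43 ± 0.259 TPM in OVA and 5.29 ± 0.665 TPM in CTRL. Of the named genes, 2 were among the 4 of this list called lower with citraconate, against 17 called higher. Havcr2 (TIM-3) had 212 ± 60.7 TPM in OVA/Citra, 504 ± 49.7 TPM in OVA and 20.8 ± 3.67 TPM in CTRL, and Entpd1 (CD39) 20.6 ± 5.96, 84.2 ± 15.1 and 10.1 ± 0.576 TPM. The survival gene Bcl2 rose with citraconate (relative log2 0.70) and fell with OVA (-2.14). The lists overlap: this one shares Bcl2l11, Lag3, Klf2 and Irf4 with those above, and Srf stands in the lists of early genes and of upstream genes.

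Of 20 tested partners and corepressors of the factors, 10 were higher and 4 lower in OVA/Citra than in OVA, beside 37.8% and 21.2% of all genes, with a median relative log2 change of 0.04. The share of lower genes was near that of all genes. In OVA against CTRL 3 were higher and 11 lower, beside 32.1% and 39.8% of all genes, with a median of -0.18 against -0.08 for all genes. Rxrb, a retinoid X receptor that pairs with NR4A1 and NR4A2, had 55.9 ± 3.96 TPM in OVA/Citra, 36.1 ± 3.07 TPM in OVA and 55.7 ± 3.14 TPM in CTRL. Chd3, a remodelling ATPase of the NuRD complex, had 11.4 ± 0.435 TPM in OVA/Citra, 12.5 ± 2.40 TPM in OVA and 59.0 ± 3.49 TPM in CTRL. Gatad2a (relative log2 -0.60) and Mta3 (-0.53) fell with citraconate and Hdac1 rose (0.46), while Ep300 fell with OVA (log2 -0.67).

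**Figure D4:**
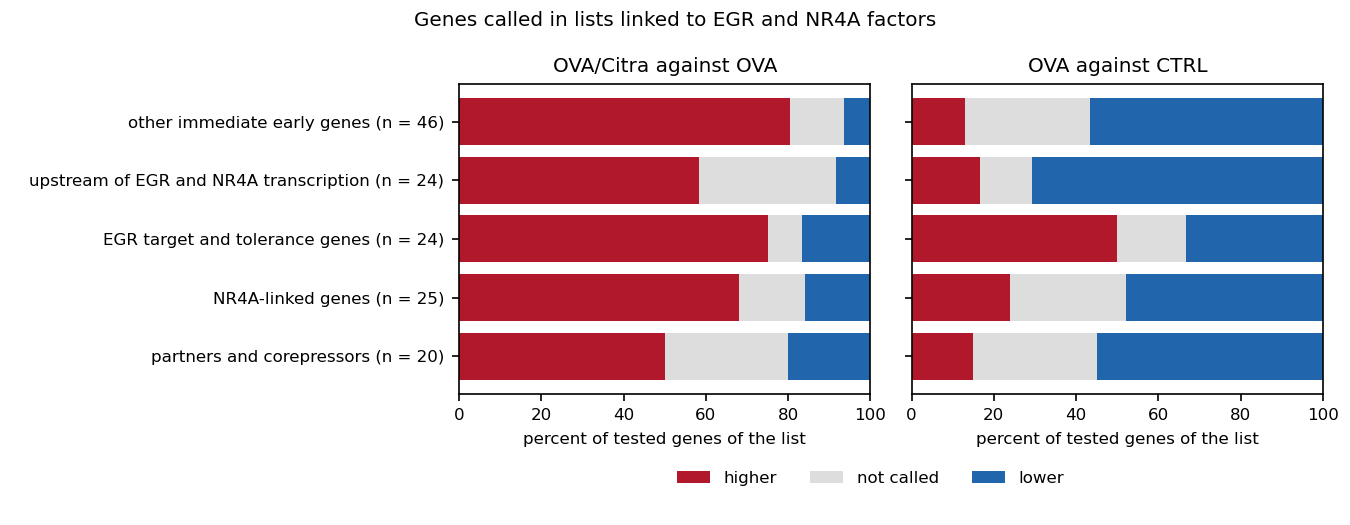
Percent of the tested genes of each list that were called higher, not called or called lower (horizontal axis) in OVA/Citra against OVA (left) and OVA against CTRL (right). Of the other immediate early genes, 37 of 46 were higher in OVA/Citra than in OVA, and 26 of 46 were lower in OVA than in CTRL.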

How the data were processed

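RNA from 9 libraries was used. The authors deposited 1 table of TPM with a column per library. Its name says FPKM, but each column sums to 1000000. The tools were Trim Galore 0.5.0 and Salmon with build GRCm39, per the submitters' processing notes, which name no annotation. Groups came from the sample titles. Reads per gene were worked back from the TPM: for 16734 of 16734 genes examined they came out whole, within 0.0001 reads or 3e-08 of the count. This took the same length for a gene in every library. How the tools named in the notes gave such values was not tested. Depth is in the report.

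Values were analysed as log2(TPM + 1) with limma 3.58.1 in R 4.3.3 (lmFit, eBayes with a trend) on all 9 libraries, with two-sided p-values adjusted by Benjamini-Hochberg over 11971 genes. Simulated data were used to test the recovery of reads and the main fit of OVA against CTRL and of OVA/Citra against OVA. Other steps were not simulated. The members and lists were chosen with earlier results of these data known; 1 list entry matched under an older symbol (Mrtfb as Mkl2). From each list the 4 genes with the smallest adjusted p in OVA against CTRL and in OVA/Citra against OVA were named, except some that are not reported here; similar genes are the 3 of highest r per member, without receptor segments, pseudogenes, numbered copies, clones and predicted genes. Egr4 and the marker genes named were picked after their values were seen. In all, 20 alternative settings were run. Promoters are from RefSeq.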

Additional observations from a re-analysis of the deposited data

How the results depend on the processing

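Over 20 alternative settings, 5 to 8 members were called in OVA against CTRL, 6 to 7 in OVA/Citra against OVA and 5 to 6 in OVA/Citra against CTRL. Over all genes the counts were 7236 to 9209, 6076 to 7237 and 6075 to 7410 in the same order. The settings covered the pseudocount (0.1 or 5), the filter on low values, scaling, the samples in the fit, the variance trend, recovered reads with voom weights, and each library left out. Calls that changed were those of Egr1, Egr2, Nab1 and Nr4a1 given with the results, and the causes were not tested. Signs changed only where the difference was near 0 and not called: over the fits that leave out 1 library, Nr4a3 in OVA/Citra against OVA ranged from -0.14 to 0.067 and Egr1 in OVA/Citra against CTRL from -0.25 to 0.016 (log2, no median subtracted). The labels do not say whether replicate numbers pair the libraries. Deviations of same-numbered libraries correlated at -0.01 to 0.08 between OVA and CTRL, 0.05 to 0.30 between OVA/Citra and OVA and 0.03 to 0.10 between OVA/Citra and CTRL. Replicate 2 correlated best with its own number in all 3 comparisons and replicate 3 in OVA/Citra against OVA, but replicate 1 in none. With the replicate number as a block, 7, 7 and 5 members and 8578, 7004 and 7128 genes were called, against 7, 7 and 5 members and 8602, 7065 and 7110 genes without the block. Each group holds 3 libraries, so small changes such as that of Nab1 rest on a few percent of spread.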

Other observations

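Reads divided by TPM are proportional to the gene length behind the deposited values. Scaled to the median of 11628 genes, this length came within 2% of the merged exons in GENCODE M21 for 68.0% of genes. Among the members it came to 4484 bases for Egr1 (4484 in GENCODE), 3356 for Egr2 (3398), 4107 for Nab1 (4100), 2938 for Nab2 (2941), 4059 for Nr4a2 (4059) and 6034 for Nr4a3 (5987). It was shorter for Nr4a1, 2458 against 3509 bases, and most of all for Egr3, 1409 against 4406 bases. The reads of Egr3 and Nr4a1 were therefore divided by shorter lengths than these merged exons. That bears on their level beside other genes and on their shares of a family, but not on their ratios of mean TPM between groups. Their log2 changes of TPM + 1 do depend on the level, through the pseudocount. For Egr3 in OVA against CTRL the log2 change was 0.89, 0.79 and 0.54 with pseudocounts of 0.1, 1 and 5. GENCODE M21 belongs to an older build than GRCm39, and the reason for the difference was not tested.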
